A study of Mus musculus with 16 samples.

Results

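Some stretches of the genome were contacted by RNA whose tags lay elsewhere on their chromosome, while holding no listed RNA tag themselves. Tags were placed in 25-kb bins by their centres, and a bin was taken as a target bin without RNA tags when it held at least 1 *cis* DNA tag and no RNA tag in either of the 2 deposited tables. There were 13484 such bins among 49018 target bins (27.5%), and the other 35534 target bins held RNA tags as well. The bins were thus selected on measured values, the presence of DNA tags and the absence of RNA tags in these same tables, so counts of bins and pairs are given as a description. A bin without RNA tags is not thereby shown to be silent, because the tables hold only tags in annotated genes and only pairs past the authors' significance limit. Of the 2542 protein-coding genes that start in these bins, 361 (14.2%) were themselves listed as contacting RNAs through tags lying in another bin.

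In RADIP an adaptor links RNA to chromatin DNA close to it in the nucleus, and an antibody against a chromatin mark then enriches the linked RNA–DNA molecules. The cells were embryonic stem cells (mESCs) of the mouse line PGK12.1, grown with serum and leukemia inhibitory factor and crosslinked with 1% formaldehyde. In the H3K27me3-RADIP group the molecules were selected with an antibody against H3K27me3, and in the Input group they were sequenced without antibody selection. No other treatment or genotype separated the groups, and both came from 1 cell line. The labels list 8 libraries in each group, which is more than the number of biological replicates that the study names, and which libraries form a replicate is not given. The authors merged all of them into 1 table per group, so that no replicate error can be given and no test between conditions was possible. Intervals are 95% intervals and cover counting error only. Of 20 pluripotency markers, 11 were listed as contacting RNAs in Input and 12 in H3K27me3-RADIP, among them *Esrrb*, *Tet1* and *Tfcp2l1*, whereas *Pou5f1* and *Nanog* were listed at 0 in both tables.

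H3K27me3 is written by Polycomb repressive complex 2 (PRC2), whose catalytic subunit is EZH1 or EZH2. In mESCs it covers CpG-rich promoters of developmental regulators that are not expressed until differentiation. PRC2 binds RNA with low sequence specificity, and RNAs such as *Kcnq1ot1* are known to act on chromatin of their own chromosome. In regions with no listed RNA tag of their own, every listed *cis* contact was made by RNA whose tag lay at another position.

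Among protein-coding genes starting in target bins without RNA tags, transcription factors of developmental families had some of the largest numbers of pairs in H3K27me3-RADIP. Of those with a RefSeq promoter entry, which *En2* is not, the promoters of the 6 with the most pairs there are printed here because CpG-rich promoters are the known sites of H3K27me3 in mESCs. Each sequence is the RefSeq promoter on GRCm38.p6 from 250 bases before to 50 bases after the gene start, 5′ to 3′ on the strand of the gene, with every CGCG in capitals. *Ascl2* lies at chr7:142969215-142969514 on the minus strand, *Foxi2* at chr7:135410117-135410416 on the plus strand and *Lhx1* at chr11:84525485-84525784 on the minus strand. *Pou4f2* lies at chr8:78436598-78436897, *Hoxa13* at chr6:52260831-52261130 and *Gata5* at chr2:180334630-180334929, all on the minus strand.
Ascl2: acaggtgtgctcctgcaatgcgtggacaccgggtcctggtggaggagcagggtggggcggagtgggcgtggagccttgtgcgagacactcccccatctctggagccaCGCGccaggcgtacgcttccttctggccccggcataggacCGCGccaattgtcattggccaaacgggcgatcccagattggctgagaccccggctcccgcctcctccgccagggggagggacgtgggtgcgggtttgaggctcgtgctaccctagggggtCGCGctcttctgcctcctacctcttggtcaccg
Foxi2: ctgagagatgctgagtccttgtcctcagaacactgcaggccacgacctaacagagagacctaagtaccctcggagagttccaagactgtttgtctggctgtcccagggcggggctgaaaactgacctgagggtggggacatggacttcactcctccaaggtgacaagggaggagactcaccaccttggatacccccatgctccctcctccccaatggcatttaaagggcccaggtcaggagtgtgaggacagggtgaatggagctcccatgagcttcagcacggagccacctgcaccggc
Lhx1: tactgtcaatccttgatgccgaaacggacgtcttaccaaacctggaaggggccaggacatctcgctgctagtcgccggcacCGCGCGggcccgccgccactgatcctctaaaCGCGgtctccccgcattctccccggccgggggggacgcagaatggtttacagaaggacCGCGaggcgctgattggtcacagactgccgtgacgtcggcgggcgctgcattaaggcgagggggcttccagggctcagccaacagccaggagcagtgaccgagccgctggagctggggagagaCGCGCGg
Pou4f2: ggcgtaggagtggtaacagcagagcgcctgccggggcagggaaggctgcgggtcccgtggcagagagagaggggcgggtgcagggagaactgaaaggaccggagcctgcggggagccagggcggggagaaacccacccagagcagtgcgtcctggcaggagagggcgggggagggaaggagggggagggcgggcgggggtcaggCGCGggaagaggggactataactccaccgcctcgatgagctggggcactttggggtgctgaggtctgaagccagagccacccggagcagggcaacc
Hoxa13: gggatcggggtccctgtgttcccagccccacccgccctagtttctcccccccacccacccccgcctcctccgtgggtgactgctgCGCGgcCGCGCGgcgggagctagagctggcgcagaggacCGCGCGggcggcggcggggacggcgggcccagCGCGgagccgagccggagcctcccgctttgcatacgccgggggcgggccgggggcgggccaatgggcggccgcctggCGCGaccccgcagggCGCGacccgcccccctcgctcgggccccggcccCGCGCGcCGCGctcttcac
Gata5: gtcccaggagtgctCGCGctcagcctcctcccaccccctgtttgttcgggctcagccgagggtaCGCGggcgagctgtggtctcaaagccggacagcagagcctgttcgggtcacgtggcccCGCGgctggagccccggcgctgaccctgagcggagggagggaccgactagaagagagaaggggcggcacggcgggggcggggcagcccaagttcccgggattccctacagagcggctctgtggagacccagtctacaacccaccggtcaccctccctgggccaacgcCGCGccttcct

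*Hoxa13* had 11 occurrences of CGCG and 45 CpG dinucleotides in this window, *Lhx1* had 6 and 31, *Gata5* 4 and 26, *Ascl2* 3 and 23, and *Pou4f2* 1 and 18. *Foxi2* had no CGCG and 5 CpG dinucleotides, so that a CpG-rich start was not shared by all 6. CGCG reads the same on both strands, and neighbouring occurrences can overlap. It was present in 72.3% of the 47 matched promoters of developmental transcription factors that start in these bins, in 41.2% of all 1880 matched promoters in these bins and in 50.9% of the 16522 protein-coding promoters matched by symbol. TATAAA, searched on both strands, was present in 8.51%, 12.9% and 12.9% of them, respectively. Promoters in bins with RNA tags held CGCG in 68.1% of cases and those in bins without any tag in 17.7%, so that target bins without RNA tags lay between both.

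Input listed 10170 of the bins without RNA tags among its 42227 target bins, or 24.1% (23.7 to 24.5). H3K27me3-RADIP listed 11440 among 43791, or 26.1% (25.7 to 26.5), a difference of 2.04 percentage points (1.46 to 2.62). The difference was 0.686 (0.0837 to 1.29) when a bin had to lack RNA tags of the same library alone, 1.03 when adjoining bins also had to lack RNA tags and 1.16 with 50-kb bins. Both libraries listed 8126 of the bins, H3K27me3-RADIP alone listed 3314 (24.6%) and Input alone listed 2044 (15.2%). Bins with RNA tags were listed by 1 library less often, with 9.78% in H3K27me3-RADIP alone and 8.96% in Input alone. The bins listed by 1 library had few pairs, with a median of 10 in H3K27me3-RADIP and 9 in Input. No combination of an RNA and a bin was listed with fewer than 7 pairs, so a bin listed at 0 may have held pairs that did not pass the authors' limit.

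In these bins lay 187006 of the 1300602 *cis* pairs of Input (14.4%, interval 14.3 to 14.4) and 253681 of the 1409822 *cis* pairs of H3K27me3-RADIP (17.99%, interval 17.93 to 18.06). The share was 3.62 percentage points higher in H3K27me3-RADIP (3.53 to 3.70), and it was higher on 20 of 20 chromosomes, by 1.39 points on chromosome 19 and by up to 5.70 points on chromosome 13. The genome-wide difference was 1.75 points when adjoining bins also had to lack RNA tags, 2.40 with 50-kb bins and 2.27 when each RNA–bin combination was counted once. The X chromosome had 17.2% (Input) and 22.6% (H3K27me3-RADIP). The rule removes pairs whose RNA and DNA tags lie in the same bin. Among pairs between different bins, the share rose from 20.2% (Input) to 23.8% (H3K27me3-RADIP), by 3.57 points (3.46 to 3.69).

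**Figure D1:**
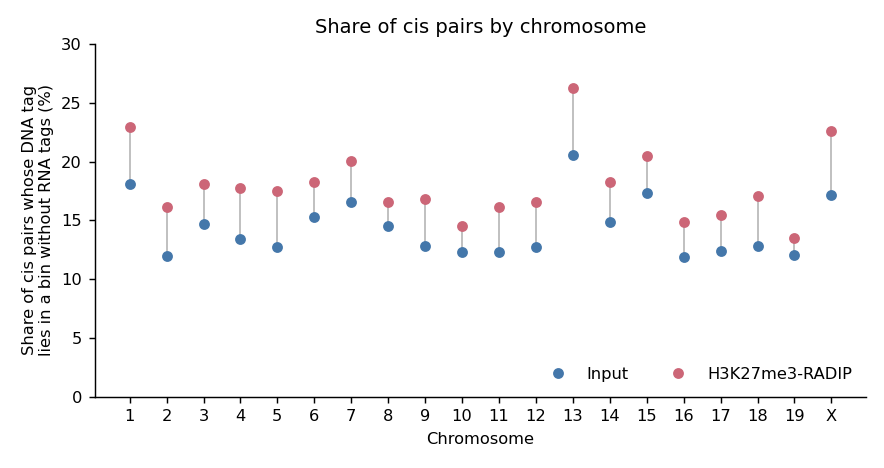
Share of *cis* pairs (%) whose DNA tag lies in a target bin without RNA tags, by chromosome, with a point for Input and a point for H3K27me3-RADIP joined by a line. The H3K27me3-RADIP point is the higher of the pair on all 20 chromosomes, with the widest gap on chromosome 13 (20.5% and 26.2%) and the narrowest on chromosome 19 (12.1% and 13.5%).

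The gain was not uniform over distance. Of the pairs 25 to 100 kb apart, the bins without RNA tags held 10.8% (Input) and 13.3% (H3K27me3-RADIP), which differ by 2.47 points (2.31 to 2.64). Of the pairs 100 kb to 1 Mb apart they held 31.0% and 33.2%, a difference of 2.24 points (2.04 to 2.43). Of the pairs over 1 Mb apart they held 35.5% and 35.4%, and the difference of -0.0957 points (-0.577 to 0.385) was within its interval. At that range the share of RNA–DNA pairs landing in bins without RNA tags thus did not differ detectably between the libraries.

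The rule leaves no RNA tag in these bins, and 30.5% of them lay 4 or more bins from a bin with RNA tags. Longer distances than in bins with RNA tags were thus partly built into the choice of bins. The median distance between the tag centres was 275 kb for Input, with quartiles of 123 and 582 kb. For H3K27me3-RADIP it was 295 kb, with quartiles of 132 and 642 kb, and the medians had a ratio of 1.07. In bins with RNA tags, pairs whose RNA tag lay in another bin had medians of 77.5 and 101 kb, a ratio of 1.31. The libraries were thus closer to each other in median distance in bins without RNA tags than in bins with RNA tags. At the far end they separated, with 95th percentiles of 1583 kb (Input) and 2250 kb (H3K27me3-RADIP). The pairs over 1 Mb apart made up 11.4% of the pairs of these bins for Input and 14.4% for H3K27me3-RADIP, which differ by 3.02 points (2.82 to 3.22), and the longest contacts spanned 47.1 and 64.4 Mb. In bins with RNA tags the share over 1 Mb was 5.24% and 8.21%, a difference of 2.96 points (2.89 to 3.04).

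**Figure D2:**
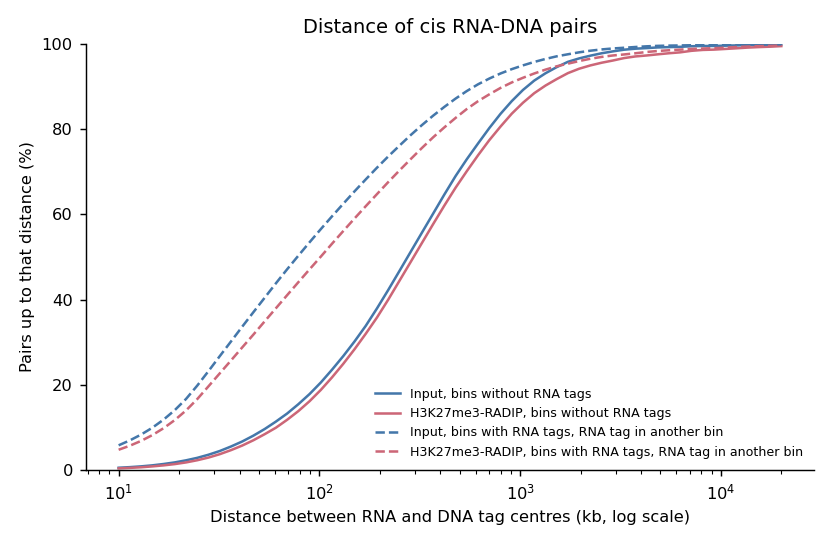
Cumulative share of *cis* pairs (%) up to a given distance between the RNA and DNA tag centres (kb, log scale), for bins without RNA tags (solid) and for bins with RNA tags whose RNA tag lies in another bin (dashed). In each library the solid curve lies to the right of the dashed one, with medians of 275 and 295 kb against 77.5 and 101 kb, and within each kind H3K27me3-RADIP lies to the right of Input. The gap between solid and dashed curves is partly built into the rule, which leaves no RNA tag in the bins of the solid curves.

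The RNAs that reached these bins came nearly all from protein-coding genes (pcRNAs), mostly from introns. Protein-coding RNAs made up 97.0% (Input) and 96.7% (H3K27me3-RADIP) of the pairs, and intronic tags 91.2% and 91.0%. Long non-coding RNAs (lncRNAs) supplied 2.88% (2.80 to 2.96) of the Input pairs and 3.23% (3.16 to 3.30) of the H3K27me3-RADIP pairs, a gap of 0.351 points (0.249 to 0.453). Without *Kcnq1ot1*, the paternally expressed lncRNA of the *Kcnq1* imprinted domain, the lncRNA share was 2.23% and 2.16%, a difference of -0.0741 points (-0.162 to 0.0136). Without this 1 RNA the lncRNA share was not detectably different between the libraries. In bins with RNA tags the lncRNA share was 2.47% and 3.07%, and without *Kcnq1ot1* the gap there was 0.128 points (0.0831 to 0.172). Other ncRNAs were listed at 0 pairs in Input and 12 in H3K27me3-RADIP.

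More RNAs contacted the bins in H3K27me3-RADIP. Input listed 2260 RNAs there and H3K27me3-RADIP 2670, which was 22.2% and 25.1% of all RNAs with *cis* pairs in each library. Both listed 1951 of them, or 86.3% of the Input RNAs and 73.1% of the H3K27me3-RADIP RNAs, while 309 were listed in Input alone and 719 in H3K27me3-RADIP alone. A listed bin was contacted by a mean of 1.24 RNAs in Input and 1.41 in H3K27me3-RADIP, against 1.59 and 1.76 for bins with RNA tags. Bins contacted by 3 or more RNAs numbered 331 in Input (3.25%) and 929 in H3K27me3-RADIP (8.12%). Counted as RNA–bin combinations, 9113 were listed in both libraries, 3451 in Input alone and 6971 in H3K27me3-RADIP alone. The shared combinations held 153149 Input pairs and 181330 H3K27me3-RADIP pairs.

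Of 1872 RNAs with at least 100 *cis* pairs in each library and any pair in these bins, 1474 (78.7%) placed a larger share of their *cis* pairs there in H3K27me3-RADIP. The median share was 11.5% (Input) and 16.2% (H3K27me3-RADIP), and the median of the differences was 4.13 points. RNAs listed in these bins in H3K27me3-RADIP alone had to have a larger share there, and those listed in Input alone a smaller share. Before the limit of 100 *cis* pairs these numbered 719 and 309. The shares of RNAs listed in these bins in both libraries were not tested separately. Over all target bins, 4.2% of the RNAs with at least 50 *cis* pairs were at least 2-fold higher in H3K27me3-RADIP after scaling to the total of *cis* pairs, and 7.85% were at least 2-fold lower. Of the 1256 RNAs with at least 50 pairs in bins without RNA tags, 194 were at least 2-fold higher in these bins (15.4%) and 37 were lower (2.95%). Any of them listed there in H3K27me3-RADIP alone had to be called higher, and any listed in Input alone lower. The balance was thus toward higher in these bins and toward lower over all bins. The direction of that balance is the one already given by the share of pairs, since both count the same pairs.

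The leading RNAs were long genes, and 8 of the 10 with the most pairs were the same in both libraries. *Wwox* (chr8:114439655-115352708), a gene for an oxidoreductase that spans a common fragile site, gave 3229 pairs in Input over 160 of the bins and 4799 in H3K27me3-RADIP over 210. *Tenm4*, a teneurin cell-surface protein gene, gave 2772 pairs and 3642, and *Fto*, an RNA demethylase gene, gave 1997 and 2892. *Jarid2*, which encodes a cofactor of PRC2, gave 2571 and 3464, which was 36.5% (Input) and 43.6% (H3K27me3-RADIP) of its own *cis* pairs. For *Wwox* the share was not higher, with 35.2% of its *cis* pairs in Input and 33.4% in H3K27me3-RADIP.

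*Fgfr2*, a fibroblast growth factor receptor gene whose annotated model covers chr7:130162451-133123350, gave 2304 pairs in Input at a median distance of 563 kb and 3917 in H3K27me3-RADIP at a median of 1512 kb. Its scaled ratio between the libraries was 1.57 (1.49 to 1.65), and these bins held 21.3% (Input) and 26.1% (H3K27me3-RADIP) of its own *cis* pairs. *Kcnq1ot1* moved further in the same direction. It gave 1233 Input pairs and 2774 H3K27me3-RADIP pairs, a scaled ratio of 2.08 (1.94 to 2.22), over 71 and 166 bins and at medians of 988 and 1825 kb. Over all bins its *cis* pairs numbered 5350 and 11139, of which these bins held 23.0% and 24.9%. Its gain was thus not particular to these bins. Not every leading RNA gained. *Pvt1*, the lncRNA beside *Myc*, gave 1986 and 2142 pairs, a scaled ratio of 0.995 (0.936 to 1.06), and *Tns3*, a focal adhesion protein gene, gave 1732 and 1845, a ratio of 0.983 (0.920 to 1.05).

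The RNAs with the largest difference by the same rule were in these bins listed at 0 in Input. *Camkmt*, a calmodulin methyltransferase gene, gave 93 pairs in H3K27me3-RADIP over 8 bins. *Cdc5l*, a splicing factor gene, gave 64 over 5 bins, and *Tab2* gave 62, *Glce* 58 and *Adap1* 57, over 6 bins each. All 5 had Input pairs in other bins, between 99 for *Glce* and 270 for *Adap1*, so the RNAs themselves were present in Input. In the other direction, *Arhgap42* gave 73 pairs in Input over 6 bins and was listed at 0 in H3K27me3-RADIP. No combination of an RNA and a bin was listed with fewer than 7 pairs. With pairs spread over several bins, an RNA listed at 0 may have held pairs under that limit. *Samd12* fell from 43 to 8 pairs, *Dcbld1* from 52 to 12, *Rictor*, an mTORC2 subunit gene, from 55 to 13 and *Kif16b* from 75 to 19.

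Pairs per bin were then compared after scaling to the total of *cis* pairs. Over all target bins with at least 20 pairs in both libraries together, 12.1% were at least 2-fold higher in H3K27me3-RADIP and 10.7% were at least 2-fold lower. Of the 7850 bins without RNA tags that reached 20 pairs, 1354 (17.2%) were higher and 401 (5.11%) were lower. The median ratio was 1.17 in these bins and 0.923 in bins with RNA tags, or 0.990 when pairs with both tags in the same bin were left out there. Of the higher bins, 383 were listed in H3K27me3-RADIP alone, and a bin with 20 pairs in 1 library and none in the other had to be called. Among bins listed in both libraries, 13.1% of those without RNA tags were higher and 4.47% lower, against 9.84% and 9.78% of all target bins. Bins adjoining a bin with RNA tags were higher in 19.3% of cases, those 2 to 3 bins away in 17.2% and those 4 or more bins away in 13.6%. Their median CpG density fell in the same order, with 10.2, 9.48 and 7.88 per kb, and its part in these shares was not tested.

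**Figure D3:**
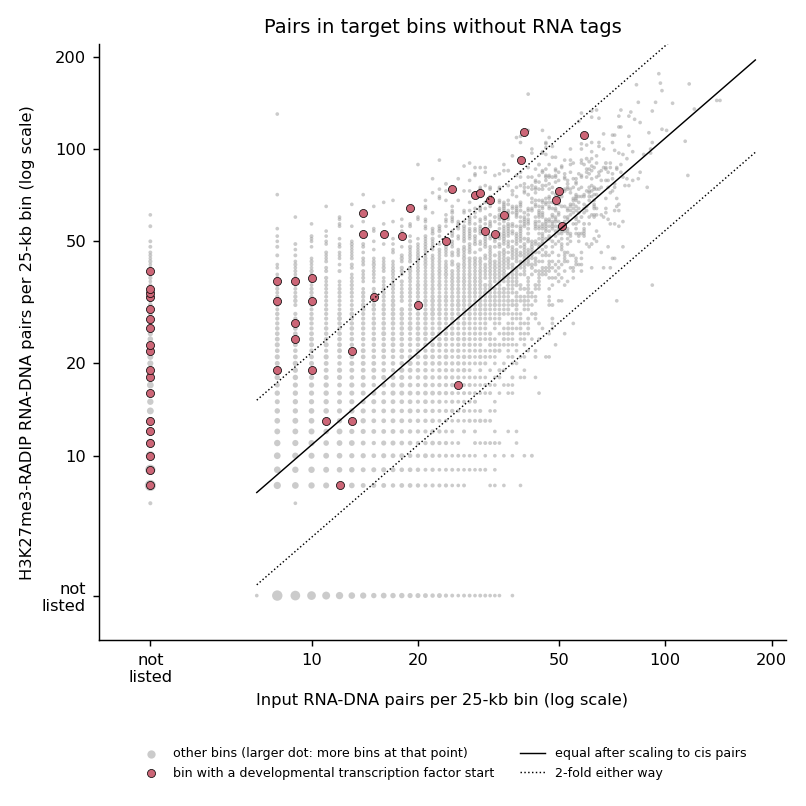
RNA–DNA pairs per 25-kb target bin without RNA tags in Input (x axis) and H3K27me3-RADIP (y axis), both on log scales with bins not listed in a library drawn at the edge. Grey points are bins, larger where several coincide, red points are the 61 bins in which a developmental transcription factor starts, the solid line marks equal counts after scaling and the dotted lines a 2-fold difference. Of the 61 red points, 58 lie above the solid line, and 26 of these are not listed in Input and so had to lie there.

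The ratio between the libraries followed base composition. In bins without RNA tags, the median ratio was 0.775 at a GC content under 40%, 1.09 at 42 to 44% and 1.60 over 48%. Bins with RNA tags showed the same order, from 0.554 under 40% to 1.32 over 48%. In each of the 6 GC bands the bins without RNA tags had the higher median ratio, also when pairs with both tags in the same bin were left out. Up to 44% GC, 279 bins without RNA tags were at least 2-fold higher (8.11%, against 4.55% of all target bins of that GC range) and 274 at least 2-fold lower (7.96% against 19.3%). Over 48% GC, 384 were higher (34.6% against 24.3%) and 21 lower (1.89% against 2.08%). The ratio also followed CpG density, from 0.871 in bins without RNA tags with under 6 CpG per kb, of which 5.23% were higher, to 2.73 in the 81 bins with over 20 per kb, of which 58.0% were higher. In bins with RNA tags it ran from 0.600 to 1.41 over the same range. Within 42 to 46% GC, 11.8% of the bins without RNA tags were higher under 8 CpG per kb and 18.2% over 10, while bins with RNA tags gave 7.68% and 8.38%. Over 48% GC the median ratio was 1.58 above the band's median CpG density and 1.61 up to it. The median GC content was 43.8% without RNA tags (quartiles 41.7 and 46.1), 44.1% with RNA tags (41.3 and 47.0) and 39.0% in bins without any tag. The GC-rich and CpG-rich end held fewer bins without RNA tags, with 1111 of 7850 tested bins over 48% GC against 6467 of 28603 with RNA tags, and with 0.831% of bins over 20 CpG per kb against 2.79%. The part of GC and CpG content in the differences between the libraries was not tested.

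**Figure D4:**
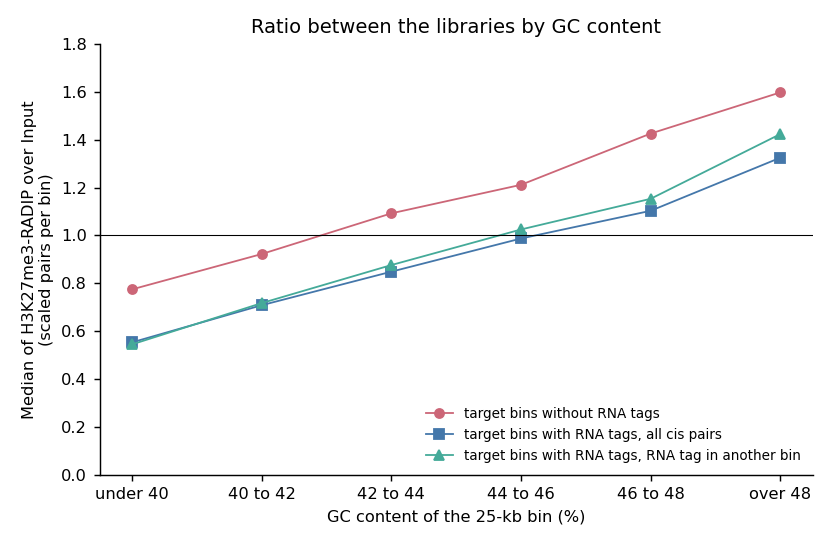
Median over bins of the H3K27me3-RADIP over Input ratio of scaled pairs, by GC content of the 25-kb bin (%), for bins without RNA tags (circles), bins with RNA tags (squares) and bins with RNA tags counting pairs whose RNA tag lies in another bin (triangles). All 3 curves rise with GC content, and the circles lie above the other curves in each band, from 0.775 under 40% to 1.60 over 48%.

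About genes, 49.3% of the bins without RNA tags overlapped no annotated gene, and 8.60% touched a gene listed as a contacting RNA. A protein-coding gene started in 15.7% of them, against 26.8% of bins with RNA tags and 9.83% of bins without any tag. Bins with a protein-coding start had a median ratio of 1.34 between the libraries and were higher in 25.4% of 1244 cases. Bins without one had a median ratio of 1.15 and were higher in 15.7% of 6606 cases. CpG density had a median of 9.24 per kb in bins without RNA tags, 10.4 in bins with RNA tags and 5.56 in bins without any tag.

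Among the gene lists compared, developmental transcription factors had the largest scaled ratio of listed pairs between the libraries. Of 218 genes of these families (such as Hox, Pax, Sox, Fox, Gata, Lhx and Nkx), 61 started in bins without RNA tags, 125 in bins with RNA tags and 27 in bins without any tag. The 61 bins held 799 Input pairs and 2183 H3K27me3-RADIP pairs, a scaled ratio of 2.52. H3K27me3-RADIP listed all 61, with 8 to 114 pairs and a median of 30, and Input listed 35, with at most 59 pairs. After scaling, 58 of the 61 had more pairs in H3K27me3-RADIP. Of these, 26 were listed in H3K27me3-RADIP alone and so had to have more there. H3K27me3-RADIP alone listed 24.6% of all bins without RNA tags. At least 2 RNAs contacted 11 of the bins in Input and 40 in H3K27me3-RADIP.

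Of the 61 bins, 44 reached 20 pairs, and 28 of these (63.6%) were at least 2-fold higher and 0 lower, with a background of 12.1% over all target bins. The 44 included 9 that were listed in H3K27me3-RADIP alone and so had to be called. Of the 35 listed in both libraries, 19 (54.3%) were higher. Among all tested bins listed in both, the share was 13.1% without RNA tags and 9.84% over all target bins. Bins with RNA tags in which genes of the same list start were higher in 48 of 101 cases (47.5%) and lower in 1, so that the group stood high in both kinds of bin. Developmental bins were also GC-rich. Within the bins over 48% GC that held a protein-coding start, those with developmental transcription factors were higher in 19 of 23 cases (82.6%) with a median ratio of 2.77, and the others in 119 of 324 (36.7%) with a median of 1.66. From 46 to 48% GC the counts were 8 of 15 (53.3%) and 67 of 234 (28.6%). From 44 to 46% they were 1 of 5 (20.0%) and 59 of 281 (21.0%), and from 42 to 44% they were 0 of 1 and 39 of 230. By CpG density, the counts were 27 of 37 and 89 of 262 over 15 per kb, and 1 of 6 (16.7%) and 154 of 610 (25.2%) at 10 to 15 per kb. The larger shares of developmental bins were thus found in the most GC-rich and CpG-rich bins, which hold most of them. The list was chosen with earlier results of these data known, and these counts are a description.

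**Figure D5:**
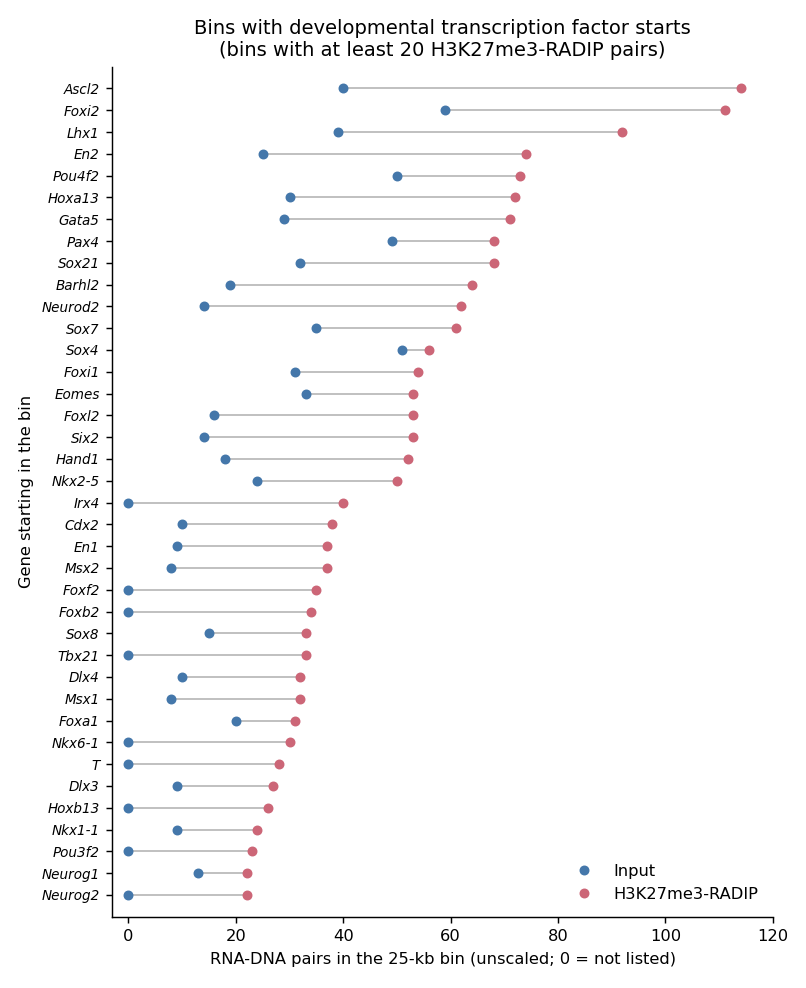
Unscaled RNA–DNA pairs in Input (blue) and H3K27me3-RADIP (red) for the 38 bins without RNA tags in which a developmental transcription factor starts and which held at least 20 pairs in H3K27me3-RADIP, ordered by that number, with 0 meaning that the bin is not listed. H3K27me3-RADIP has the larger number in each of these bins, from *Ascl2* with 40 and 114 pairs to *Neurog2* with 0 and 22.

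*Ascl2*, an imprinted transcription factor gene of the trophoblast whose promoter is printed above, starts in chr7:142950001-142975000. Its bin held 40 pairs in Input, all with *Kcnq1ot1* RNA, and 114 in H3K27me3-RADIP, a scaled ratio of 2.63 (1.82 to 3.87). In H3K27me3-RADIP, *Kcnq1ot1* supplied 76 of them at a median distance of 305 kb, and *Tspan32os*, *Cd81* and *Cars* supplied 16, 11 and 11 at medians of 28.4, 97.7 and 622 kb. The bin thus had 1 listed contacting RNA in Input and 4 in H3K27me3-RADIP. RNAs not listed there in Input may have held pairs that did not pass the authors' limit.

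*Foxi2*, a forkhead factor gene, starts in a bin with 59 Input pairs and 111 H3K27me3-RADIP pairs, a ratio of 1.74 (1.25 to 2.42), which stays under the 2-fold limit. *Dock1*, *Fgfr2* and *Mgmt* RNAs contacted it in both libraries. *Kcnq1ot1* RNA contacted it in H3K27me3-RADIP with 15 pairs at a median distance of 7854 kb and was not listed there in Input. *Lhx1*, needed for head and kidney formation, had 39 and 92 pairs, a ratio of 2.18 (1.48 to 3.25). RNA of *Aatf*, *Acaca* and *Bcas3* reached it in both libraries, and *Msi2* RNA from 3991 kb away was listed in H3K27me3-RADIP alone.

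*Hoxa13*, the terminal gene of the HoxA cluster, which patterns the distal limb, had 30 Input pairs and 72 H3K27me3-RADIP pairs, a ratio of 2.21 (1.43 to 3.51). *Hibadh* RNA, from 332 kb away, supplied all 30 Input pairs and 44 H3K27me3-RADIP pairs. The other 28 came from *Exoc4*, *Snx10* and *Tax1bp1*, of which *Exoc4* lay 18651 kb away. *Gata5*, a cardiac and endodermal factor gene, had 29 and 71 pairs, a ratio of 2.26 (1.45 to 3.61), with *Dido1* RNA rising from 14 to 43 pairs and *Cdh4* RNA at 15 and 17. In the *Hoxa13* bin the Input library listed a single contacting RNA, and in the *Gata5* bin it listed 2.

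The engrailed gene *En2*, a midbrain regulator, had 25 Input pairs and 74 H3K27me3-RADIP pairs, a ratio of 2.73 (1.71 to 4.49). *Neurod2*, a neuronal differentiation factor gene, had 14 and 62, a ratio of 4.09 (2.26 to 7.90), of which *Cdk12* RNA, at a median distance of 108 kb in Input, supplied 14 and 51. *Barhl2* had 19 and 64 pairs, a ratio of 3.11 (1.84 to 5.49). The intervals of these 3 ratios overlapped one another and all lay above 1. *Pou4f2*, a retinal ganglion cell factor gene, had 50 and 73, a ratio of 1.35 (0.927 to 1.97), and *Pax4*, a pancreatic factor gene contacted by *Snd1* RNA alone, had 49 and 68, a ratio of 1.28 (0.874 to 1.89). Both intervals include 1.

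The bins of 26 developmental transcription factors were listed in H3K27me3-RADIP alone, and 5 of them, chosen after their values were seen, are given here. The bin of *T* (brachyury), a mesoderm factor gene, held 0 pairs in Input and 28 in H3K27me3-RADIP from 3 RNAs. *Irx4*, a cardiac ventricle factor gene, had 0 and 40, *Foxf2* 0 and 35, *Tbx21* 0 and 33 and *Nkx6-1* 0 and 30. For *Eomes*, a mesendoderm factor gene, both libraries listed pairs, with 33 and 53 and a ratio of 1.48 (0.942 to 2.36). A bin listed at 0 in Input may have held pairs below the smallest listed combination of 7. *Sox4*, with 51 and 56 pairs and a ratio of 1.01 (0.681 to 1.51), is among those with an interval that includes 1.

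The larger of the other gene lists had fewer higher bins. Of 1514 chemosensory receptor genes, which are clustered and expressed in sensory neurons, 94.6% started in bins without any tag and 70 in bins without RNA tags. Their 53 bins held 582 and 609 pairs, a scaled ratio of 0.965, and 3 of 21 that reached 20 pairs were higher. Clusters of keratin, defensin, serpin, cytochrome P450 and similar tissue genes had 433 and 573 pairs in 39 bins, a ratio of 1.22, and again 3 of 21 were higher. *Zfp* genes had 309 and 480 pairs in 35 bins, a ratio of 1.43, and 1 of 13 was higher. These shares (14.3%, 14.3% and 7.69%) compare with 12.1% of all target bins, 17.2% of bins without RNA tags and 25.4% of those with a protein-coding start. The median CpG density was 6.52 per kb in the chemosensory bins and 19.9 per kb in the developmental bins.

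Few genes of the other lists started in such bins. Of 20 pluripotency genes these were *Nanog*, with 16 pairs in Input and 18 in H3K27me3-RADIP, and *Dppa4*, with 13 and 10. Of 20 housekeeping genes it was *Pgk1*, with 10 and 9. Of 27 imprinted genes there were 4, and 1 of the 4 was higher. Besides *Ascl2* these were *Dio3*, a thyroid hormone-inactivating enzyme gene with 40 and 59 pairs, *Ins2*, an insulin gene with 53 and 59, and *Plg*, the plasminogen gene with 15 and 32. No clustered protocadherin gene started in a bin without RNA tags. The ratio was 1.04 (0.500 to 2.18) at *Nanog*, 0.710 (0.279 to 1.75) at *Dppa4*, 0.830 (0.299 to 2.27) at *Pgk1* and 1.03 (0.697 to 1.52) at *Ins2*, so that no difference was detectable at these depths. That reading does not cover *Plg* or *Dio3*, whose counts were higher in H3K27me3-RADIP.

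Among all 2635 bins without RNA tags that held at least 50 pairs, the largest ratio between libraries that both list the bin was that of *Barx1*, a homeobox gene of the stomach and jaw, at chr13:48650001-48675000. Its bin held 8 pairs in Input, all with *Fam120a* RNA, and 130 in H3K27me3-RADIP, a scaled ratio of 15.0 (7.39 to 35.5). In H3K27me3-RADIP 7 contacting RNAs were listed, with 31 pairs from *Fam120a*, 25 from *Jarid2*, 24 from *Cenpp*, 18 from the lncRNA *6720427I07Rik*, 13 from *Phf2*, 10 from *Wnk2* and 9 from *Kif13a*. *Barx1* was not on the list of developmental transcription factors, and its bin has 51.6% GC and 23.4 CpG per kb. *Cited4*, a CBP/p300 co-activator gene at chr4:120650001-120675000, had 8 and 71 pairs, a ratio of 8.19 (3.94 to 19.7), from 1 and 5 RNAs. Both ratios and their intervals count listed pairs alone. An RNA not listed in Input may have held pairs there below the smallest listed combination of 7.

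By the same rule, 5 bins had 50 or more pairs in H3K27me3-RADIP and were listed at 0 in Input. They held 61 pairs at *Sppl2c*, a signal peptide peptidase-like gene, 56 at *Rab14*, a vesicle-traffic GTPase gene, 56 at *Scnn1g*, an epithelial sodium channel subunit gene, 50 at *Fam83a* and 50 at chr7:137900001-137925000, where no protein-coding gene starts. The pairs of the bin at *Scnn1g* came from 4 RNAs, *Cog7* with 23, *Fgfr2* with 13, *Tenm4* with 12 and *Usp31* with 8. Each of the 5 bins was contacted by 3 to 5 RNAs, none of which had more than 27 pairs in the bin. *Rab14* and *Fam83a* were listed as contacting RNAs elsewhere in the tables, so these genes were not silent by the tables' own listing.

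The lowest ratios were those of *Cln6*, a lysosomal disease gene, and *Epop*, which encodes a PRC2-associated protein, each with 42 Input pairs and 10 H3K27me3-RADIP pairs, a ratio of 0.220 (0.0983 to 0.445). At *Epop* (chr11:97625001-97650000) the 3 contacting RNAs of Input were *Mllt6* with 20 pairs, *2410003L11Rik* with 13 and *Arhgap23* with 9, and *2410003L11Rik* remained in H3K27me3-RADIP. *Gpr1* had 40 and 10 pairs, with *Adam23* RNA falling from 31 to 10. In each of these 3 bins, 1 contacting RNA was listed in H3K27me3-RADIP.

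The bins with the most pairs went both ways. The bin with the most pairs in Input, chr12:109575001-109600000, carries a cluster of imprinted microRNA genes downstream of *Meg3*. It held 143 Input pairs and 144 H3K27me3-RADIP pairs, a ratio of 0.929 (0.732 to 1.18), of which *Meg3* RNA supplied 103 and 94 and *Rian* RNA 31 and 39. The bin of *Myc*, the cell growth regulator, at chr15:61975001-62000000 held 140 and 144 pairs, a ratio of 0.949 (0.747 to 1.21), and *Pvt1* RNA supplied 140 and 136 of them. The next bin, chr15:62000001-62025000, was contacted by *Pvt1* RNA alone and was lower in H3K27me3-RADIP, with 116 and 82 pairs and a ratio of 0.652 (0.485 to 0.873). The bin with the most pairs in H3K27me3-RADIP, chr11:33175001-33200000, had 96 in Input and 176 in H3K27me3-RADIP, a ratio of 1.69 (1.31 to 2.19), and *Ranbp17* RNA supplied 87 and 160. *Ntng2*, a netrin-G gene of neurons, stood apart among these, with 41 and 151 pairs and a ratio of 3.40 (2.39 to 4.92).

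Bins without RNA tags often adjoined each other. They formed 5737 runs, of which 3154 were single bins, and 47.9% of the bins lay in runs of 4 or more. The longest run, 38 bins at chr7:95200001-96150000, lies beside *Tenm4*, and *Tenm4* was its only contacting RNA, with 1587 Input pairs and 1842 H3K27me3-RADIP pairs, a ratio of 1.07. The run of 37 bins at chr2:178500001-179425000 was contacted by *Cdh4*, *Taf4* and *Dido1*, with 496 and 788 pairs and a ratio of 1.47. The run of 33 bins at chr7:135850001-136675000 was contacted by 5 RNAs, among them *Mgmt*, *Fgfr2*, *Dock1* and *Kcnq1ot1*, with 925 and 1688 pairs and a ratio of 1.68. No protein-coding gene starts in any of the 3 runs.

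At the limit of the rule, the 4 bins with the fewest pairs held 7 each over both libraries, and the median over all bins without RNA tags was 24. Just outside, 683 target bins held a single RNA tag and had a median of 22 pairs, while all bins with RNA tags had a median of 48.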

How the data were processed

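H3K27me3-RADIP and Input tables of PGK12.1 mESCs were compared. The authors mapped RNA and DNA tags to mm10, kept uniquely mapped pairs, removed DNA tags in blacklisted regions, annotated RNA tags with GENCODE genes and merged all replicates. The submitters' processing notes name CASAVA 1.8.2, BWA 0.7.15-r1140 and STAR 2.5.0a. The deposited numerical values are p-values and q-values of a modified CHiCANE model for each RNA and 25-kb bin, and the authors kept those with a q-value of at most 0.1. Tag positions are the other deposited columns. Lines, 1 per pair, were counted: 1305107 in Input and 1415135 in H3K27me3-RADIP. Repeated lines cannot be told from amplified copies, and repeated tag positions made up 7.24% and 10.1% of the pairs in the bins described.

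A tag was placed in the bin of its centre. Shares have 95% Wilson intervals, their differences Newcombe intervals and ratios of pair counts exact binomial (Clopper–Pearson) intervals. Ratios were scaled by the *cis* totals (1.08) and count listed pairs alone. A bin was called at 2-fold with at least 20 pairs over both libraries and a floor of 3 pairs for calls alone. This rule was tested on simulated independent counts. They had no listing limit and no replicate spread, so they do not bear on either. GC and CpG content came from GRCm38.p6, and gene starts from GENCODE M21, an older release than the authors' on the same build. Of the RNA identifiers, 99.9% matched without version, and 75.4% of protein-coding symbols had a RefSeq promoter. Python 3.11.15, numpy 2.4.6, pandas 2.3.3, scipy 1.17.1 and matplotlib 3.10.9 were used.

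The bins, gene lists and rules were chosen with earlier results of these data known. Named RNAs were each library's 10 leading RNAs by pairs, plus the 5 highest and 5 lowest ratios among RNAs with at least 50 pairs. Named bins were each library's 10 leading bins by pairs, the 10 highest and 5 lowest ratios among bins with at least 50 pairs, the 3 longest runs and the 5 with the most RNAs, from which examples are given. Up to 10 genes per list were named by pairs, and others were chosen after their values were seen. Some single genes are not reported here.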

Additional observations from a re-analysis of the deposited data

Results flagged for a closer look

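The DNA tags of *trans* pairs were not used to choose the target bins without RNA tags. A larger share of them lay there in H3K27me3-RADIP than in the Input control, but not without *Gm22973*, annotated as a small nuclear RNA. Of the *trans* pairs, 298 of 4505 in Input (6.61%, interval 5.93 to 7.38) and 616 of 5313 in H3K27me3-RADIP (11.6%, interval 10.8 to 12.5) had a DNA tag in such a bin, a difference of 4.98 percentage points (3.85 to 6.10). The bins involved were few, 29 in Input and 47 in H3K27me3-RADIP. *Malat1* gave 123 and 232 of these pairs, or 10.3% and 10.9% of its *trans* pairs, and *Gm22973* gave 117 and 209, or 3.98% and 11.8%. For *Snord118* the shares were 22.5% and 15.6% and for *Rmrp* 18.5% and 13.3%, so that the RNAs did not move alike. *Gm22973* *trans* pairs numbered 2940 (Input) and 1765 (H3K27me3-RADIP). Without it the shares were 11.6% in Input (10.1 to 13.2) and 11.5% in H3K27me3-RADIP (10.5 to 12.6), a difference of -0.0942 points (-2.05 to 1.75), so that the difference between the libraries rested on this 1 RNA. Without *Malat1* it was 6.77 points (5.41 to 8.15).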

How the results depend on the processing

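No paired analysis was possible because each condition has 1 table of merged replicates, and for the same reason no replicate could be left out. Of 114 values under alternatives, 64 stayed near the reported value, 47 moved and 3 changed sign. Differences are H3K27me3-RADIP minus Input, in percentage points, or in kb for the median distance (19.4 kb as reported). With a q-value of at most 0.01, the share of bins differed by 2.79, of *cis* pairs by 4.37 and of lncRNA by 0.167, and the distance by 14.8 kb. With 50-kb bins the first 2 were 1.16 and 2.40, with 6284 bins meeting the rule, 823 of the tested ones higher (20.4%, all target bins 13.2%) and 18 of 33 developmental bins higher. With 10-kb bins, 43824 met the rule, and pairs differed by 4.49, lncRNA by 0.475 and distance by 24.3 kb. Without the 10 leading RNAs, pairs differed by 3.51, lncRNA by 0.164 and distance by 13.8 kb. Where adjoining bins also had to lack RNA tags, 8007 bins remained, with differences of 1.03 (bins), 1.75 (pairs), 0.491 (lncRNA) and 14.7 kb, and 661 bins higher (15.5%, all 12.1%), 202 lower (4.74%, all 10.7%) and 13 of 23 developmental bins higher. Counting each RNA and bin once gave 2.27 (pairs), 0.598 (lncRNA) and 32.1 kb, and this setting gives no value for bins or RNAs. With RNA tags of the same library alone, bins differed by 0.686 and pairs by 2.82, and 2213 were higher (21.1%, all 12.1%), 726 lower (6.93%, all 10.7%) and 48 of 74 developmental bins higher. Higher and lower bins numbered 2491 and 1046 at a 1.5-fold limit, 2808 and 1271 from 10 pairs, and 377 and 38 from 50 pairs, where 10 of 20 developmental bins were higher. The higher shares at these settings were 31.7%, 25.8% and 14.3%, against 22.8%, 16.7% and 8.35% of all target bins, and the lower shares 13.3%, 11.7% and 1.44% against 22.9%, 14.2% and 7.89%. The share among pairs between bins differed by 2.47 at 25 to 100 kb, 2.24 at 100 kb to 1 Mb and -0.0957 over 1 Mb. A protein-coding gene overlapped 24.4% of bins in any part.

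Chosen after the data were seen were splits by GC content and the omission of single RNAs, besides a floor of 7 pairs and bins listed in both libraries, which left the counts of changed bins within 1.5 times. Over 48% GC, 384 bins were higher (34.6%, all target bins 24.3%) and 21 lower (1.89%, all 2.08%). Up to 44% GC, 279 were higher (8.11%, all 4.55%) and 274 lower (7.96%, all 19.3%), and the count of 0 developmental bins says nothing, since 1 was tested there. The lncRNA difference was -0.0741 without *Kcnq1ot1*, and that of *trans* pairs was -0.0942 without *Gm22973* and 6.77 without *Malat1*. The ratio of the number of contacting RNAs, 1.18 as reported, stayed between 1.09 and 1.26. The smallest listed combination of 7 pairs limits what a bin or an RNA listed at 0 can show. It also limits the ratios of bins with RNAs listed in 1 library alone.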
